A study of Mus musculus with 6 samples.

Results

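Skeletal muscle of aged mice on a high-fat diet was compared with and without nobiletin (NOB) in the resting phase. The comparison is that of the HF.NOB library with the HF library at ZT6, over the 20311 genes of 26294 in the table whose mean value across the 6 deposited libraries was at least 1. The last gene kept had a mean of 1.01 and the first one dropped 0.9999, and 5983 genes were dropped. Male C57BL/6 mice, 24 to 26 months old at collection, received a regular diet (RD), the high-fat diet (HF) or the high-fat diet with 0.1% NOB (HF.NOB). The labels give 5 to 6 months of feeding for HF and HF.NOB and no feeding time for RD. The tissue was calf muscle (gastrocnemius together with soleus), collected at ZT6 and at ZT18 (hours after lights on), and total RNA was extracted for sequencing. Each diet and time has 1 column in the table, so the comparison rests on 1 column a side, has no replicate check and is given without a test. The value of each gene is a read number times 1 factor per library, and whether a column is 1 library or several summed, and how many mice stand behind it, is not given in the labels. A column is called a library here.

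Nobiletin is a flavonoid of citrus peel and an agonist of the RORs, nuclear receptors that drive transcription of the clock gene Arntl through response elements that the REV-ERB repressors also bind. The muscle clock sets a daily rhythm in genes of fuel use, and hormones such as the glucocorticoids, which peak before the active phase, drive a further set of rhythmic genes. Mitochondrial respiration runs through complexes I to V (CI to CV), whose subunits are encoded mostly in the nucleus and in part in the mitochondrial genome. Calf muscle also holds blood in its vessels, and nerve, fat, tendon and immune cells between the fibres.

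The libraries held 23248663 reads on genes for HF.NOB and 30005726 for HF at ZT6, and 23676252 to 31837501 for the other 4. Of the 9 fibre markers, Acta1, Ckm, Myh1, Myh2, Myh4, Myh7, Tnnt3, Des and Ttn, each was measured, and their summed deposited value in HF.NOB lay within the range of the other 5 libraries. After the length adjustment none of the 9 was past 1.5-fold in HF.NOB against HF, but as deposited Ttn (-1.61) and Myh7 (-0.61) were past it downward and Des (0.65) and Tnnt3 (0.65) upward. The HF library of ZT18 held RNA of liver genes, with 885 for the serum albumin gene Alb against 1.33 to 9.34 in the others. The RD and HF.NOB libraries of ZT6 stood apart in reads on ribosomal RNA-like loci, and the HF.NOB library of ZT6 stood apart from all others in how its values followed transcript length. On the deposited scale, 797 abundant protein-coding genes (mean 100 or more) were at least 1.5-fold above every other library in HF.NOB at ZT6 and 942 at least 1.5-fold below every other library. The other 5 libraries had 0 to 20 such genes above and 2 to 12 below. Folds were therefore computed on both scales. The deposited fold is log2((HF.NOB + 1)/(HF + 1)), and the length-adjusted fold is that value minus the median of genes whose longest transcript has a similar length. Folds of single genes and counts past 1.5-fold are length-adjusted unless given as deposited. Where a gene is said to lie above or below all other libraries, each library was adjusted for length in the same way, and deposited values can then still overlap. After that adjustment, 258 of the abundant genes lay at least 1.5-fold above and 274 below every other library in HF.NOB at ZT6, and 0 to 23 and 2 to 13 in the other libraries.

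Short transcripts were higher and long transcripts lower in HF.NOB than in HF. The median deposited log2 fold was 1.06 for transcripts under 500 bases, 0.84 from 500 to 1000 bases, 0.57 from 1000 to 2000, 0.15 from 2000 to 4000, -0.32 from 4000 to 8000, -0.83 from 8000 to 16000 and -1.31 for the 25 genes of 16000 bases or more. The median length-adjusted fold was between -0.02 and 0.03 for the classes from 500 to 16000 bases, 0.21 for the shortest class and -0.25 for the longest. HF.NOB against RD at ZT6, which shares the HF.NOB library, gave 0.90 for the shortest class and -1.34 for the longest. The comparisons without that library were close to flat, with -0.14 and -0.08 for HF against RD at ZT6 and 0.01 and 0.09 for HF.NOB against HF at ZT18. Across the 10006 abundant protein-coding genes, the Spearman correlation of the deposited fold was -0.75 with the length of the longest transcript, -0.64 with coding length (8363 genes), -0.49 with the number of exons and 0.13 with GC content. These correlations are across genes of 1 pair of libraries and are descriptions. The part of RNA length, library preparation or diet in this gradient was not tested, and with 1 library they cannot be told apart.

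**Figure D1:**
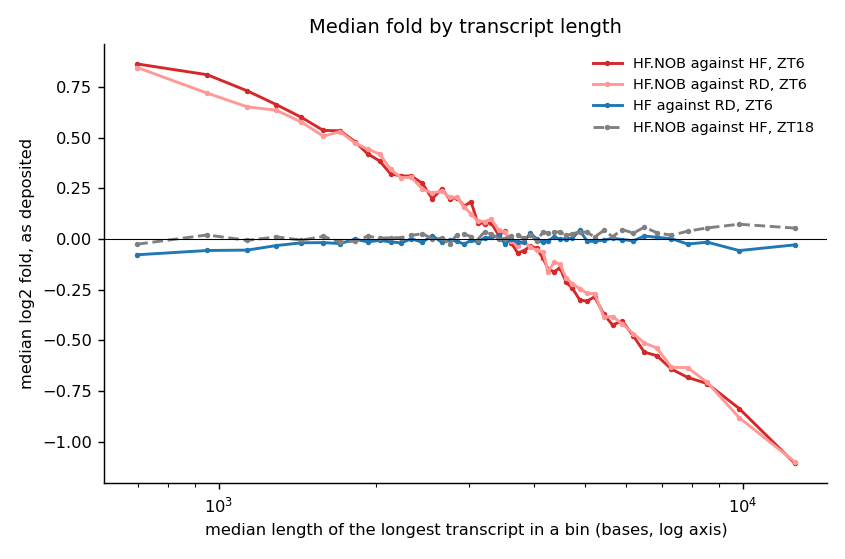
Median deposited log2 fold (y axis) of genes grouped by the length of their longest transcript (x axis, log scale, 50 bins of equal gene number) in 4 comparisons. The lines for HF.NOB against HF and against RD at ZT6 run from above 0 at short lengths to below 0 at long ones, while the lines for HF against RD at ZT6 and HF.NOB against HF at ZT18 stay near 0.

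After adjustment, 2281 of 20198 genes with a known length were at least 1.5-fold higher in HF.NOB (11.3%) and 4256 at least 1.5-fold lower (21.1%). On deposited values, 4253 of 20311 were past that fold upward (20.9%) and 4557 downward (22.4%). Of the adjusted differences, 1413 lay above all 5 other libraries (7.00%) and 3204 below all of them (15.9%). Most of the lower genes had few reads. With a mean of at least 100, the numbers were 661 higher (6.40%) and 575 lower (5.57%) of 10328 genes, and with a mean of at least 1000, 248 higher and 114 lower of 3632. The same comparison at ZT18 shares no library with that at ZT6. Of genes with a mean of at least 100, 61 were past 1.5-fold higher (0.591%) and 126 past 1.5-fold lower (1.22%) at ZT18. Of the 661 genes higher at ZT6, 6 were also higher at ZT18, and of the 575 lower at ZT6, 6 were also lower at ZT18.

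Of the 93 gene lists described, that of red cell genes had the highest median fold. Counts in this and later lists stand beside 11.3% of all genes higher and 21.1% lower. Globin chains carry oxygen, and Alas2 makes the first haem precursor in red cell precursors. Of 16 measured genes, 10 were at least 1.5-fold higher, 1 was lower, 10 lay above all 5 other libraries, and the median length-adjusted fold was 2.202 (2.68 as deposited), beside -0.06 and 0.0028 over all genes. Hbb-bt, a beta globin, had 634 with RD, 143 with HF and 1996 with HF.NOB at ZT6, beside 412, 232 and 182 at ZT18. HF.NOB was the highest library and HF the lowest, and the length-adjusted fold was 2.97 (95% interval 2.73 to 3.23). Here and below, intervals reflect counting error alone, and without molecular identifiers the reads may repeat molecules. The alpha globin gene Hba-a1 had 1059.6, 331 and 3269 at ZT6 (diets in the order RD, HF, HF.NOB) and 949, 444 and 395 at ZT18, an adjusted fold of 2.47. Its copy Hba-a2 was at 2.48. Reads of these copies, and of Hbb-bs and Hbb-bt, can be assigned to either member, so the split between them is uncertain. Alas2 had 291, 81.8 and 489 at ZT6 in the same order, with HF.NOB above and HF within the range of the ZT18 libraries. Among genes with fewer reads, the red cell membrane gene Slc4a1 had 5.99 in HF and 72.0 in HF.NOB (3.58, 2.57 to 5.29). Tfrc, the transferrin receptor, which most cells carry, was at -0.53.

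For these genes HF.NOB was high at ZT6, and HF was low against RD. After adjustment HF at ZT6 was the lowest of the 6 libraries for 4 of the 16 red cell genes. Hbb-bs, Hba-a1 and Alas2 summed to 1222 in HF at ZT6, beside 1588 in HF and 1276 in HF.NOB at ZT18. Their sums in RD were 4150 at ZT6 and 3368 at ZT18. Against RD at ZT6, the median of the red cell list was 0.62 for HF.NOB and -1.48 for HF, comparisons that share the RD library, and it was -0.34 for HF.NOB against HF at ZT18. In these bulk samples, more cells of a type and more RNA per cell cannot be told apart.

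The promoters of the globin genes are shown because globin genes made up 4 of the 7 highest length-adjusted folds of abundant protein-coding genes, and because the alpha copies share their upstream sequence. The stretches are from RefSeq promoters (GRCm38.p6), 110 bases up to the start site, with the CACCC motif, the CCAAT motif and the ATATAA motif in capitals where they match on either strand. They are Hba-a1 at chr11:32283562-32283671 (plus strand), Hbb-bs at chr7:103827929-103828038 (minus strand) and Hbb-bt at chr7:103813924-103814033 (minus strand).
Hba-a1: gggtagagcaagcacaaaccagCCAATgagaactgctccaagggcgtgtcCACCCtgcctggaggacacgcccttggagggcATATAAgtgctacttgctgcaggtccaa
Hbb-bs: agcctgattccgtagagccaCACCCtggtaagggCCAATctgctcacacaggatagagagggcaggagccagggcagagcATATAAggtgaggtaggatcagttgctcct
Hbb-bt: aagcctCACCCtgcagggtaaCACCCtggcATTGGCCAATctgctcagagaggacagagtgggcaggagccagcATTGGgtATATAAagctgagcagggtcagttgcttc
Each of the 3 stretches held all 3 motifs. Of 32851 mouse promoter windows of 300 bases, 57.5% held the first motif, 37.4% the second, 9.82% the third and 1.84% all of them. The windows of Hba-a1 and Hba-a2 were identical in 297 of 297 aligned bases. A match is a description of the letters and names no bound factor.

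Neutrophil genes were higher in HF.NOB as well. Of 24 measured, 14 were at least 1.5-fold higher and 1 lower, 9 lay above all other libraries, and the median was 0.95 (1.37 as deposited). Of these genes, 11 of the 24 had under 20 reads in HF and HF.NOB together. S100a8 and S100a9 encode the subunits of calprotectin, an abundant neutrophil protein. S100a8 had 44.0 with RD, 6.99 with HF and 204 with HF.NOB at ZT6, beside 79.2, 9.02 and 6.69 at ZT18, with RD at ZT18 the next highest library and an adjusted fold of 3.83 (2.94 to 5.36). S100a9 was at 3.16, and Retnlg, a neutrophil resistin-like gene, at 3.30 (1.90 to 6.95). Lcn2, which binds bacterial siderophores, had 11.98 in HF and 86.7 in HF.NOB, but 165 in RD at ZT18, above HF.NOB. The median of macrophage and monocyte genes was -0.20 but 0.20 as deposited. After adjustment 13 of 33 were above 0, 1 was at least 1.5-fold higher (Fcgr1, 0.62) and 4 were lower. Among the lower ones were the macrophage surface gene Adgre1 at -0.93 (228 against 124) and Cd68 at -0.65 (-0.02 as deposited). Platelet genes had a median of 0.39 with 6 of 13 higher, among them the platelet receptor gene Gp9 (0.998 against 13.3), which is 1 read against 10.

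Immunoglobulin genes, made by B and plasma cells, were also higher. Of 12 constant and joining chains, 7 were at least 1.5-fold higher, 6 of them above all other libraries, with a median of 1.19 (1.44 as deposited). Igkc, the kappa light chain constant region, had 49.4 with RD, 169.7 with HF and 2919 with HF.NOB at ZT6, beside 361, 149 and 147 at ZT18, an adjusted fold of 3.25 (3.03 to 3.49). Jchain, which joins IgM and IgA polymers in plasma cells, had 13.3, 43.9 and 463 at ZT6 and 67.9, 42.8 and 48.8 at ZT18 and was the highest of the 15 highest named genes at 3.09. The lambda chain Iglc1 had no read with RD, 2.99 with HF and 127 with HF.NOB (4.15). Ighm, the IgM heavy chain and the most abundant of the group, was at 0.23 (6904 against 11384), and the IgG chains Ighg2b and Ighg2c were at -0.21 and -0.53. Against RD the median of the group was 2.18 for HF.NOB and 1.25 for HF. B cell genes had a median of 0.78 with 12 of 22 higher and 4 lower, and 13 of the 22 had under 20 reads in both libraries together. Cd79a, a part of the B cell receptor, rested on 2 reads in HF and 21 in HF.NOB.

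Of the immunoglobulin variable segments, 1 gave a large part of the reads in HF.NOB. Of 66 measured segments, 44 were higher and 14 lower, with 54 having under 20 reads in both libraries together and 45 having none in HF. Many of these segments passed the minimum mean through HF.NOB alone and had to differ, so these numbers carry no weight of their own. Igkv3-2 alone had 4.003 with RD, 1.996 with HF and 659 with HF.NOB at ZT6, beside 24.9, 5.63 and 9.56 at ZT18, while the summed value of all variable segments in the table was 157.7 in HF and 1472 in HF.NOB. Other segments went the opposite way. Ighv11-2 had 0 reads in HF.NOB and RD at ZT6 and 8.98 in HF, at least 2.25-fold lower when a floor of 3 reads is used for HF.NOB.

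Lists of T, endothelial, connective tissue, Schwann and fat cells had medians between -0.05 and 0.26. T and NK cell genes had a median of 0.08 (7 higher, 3 lower of 25), endothelial genes -0.05 (0 and 3 of 30), fibroblast genes 0.07 (4 and 1 of 33), Schwann cell and myelin genes 0.10 (4 and 0 of 21) and tendon genes 0.05 (3 and 1 of 17). Adipocyte genes had a median of 0.25 with 5 of 30 higher, but 0.44 and 9 of 30 with mean transcript length, and thermogenic adipocyte genes had a median of 0.26 with 4 of 14 higher and 1 lower. Cfd, the adipokine adipsin, had 877 with RD, 595 with HF and 2807 with HF.NOB at ZT6, beside 705, 659 and 635 at ZT18, above the range of the other libraries (1.44). Fabp4, a fatty acid binding protein of adipocytes and endothelium, had 4068 in HF and 8500.2 in HF.NOB, and its fold was 1.19 with the longest annotated transcript but 0.29 with the principal one. The defining adipocyte markers Adipoq, Plin1 and Lep summed to 1241 in HF and 1849.7 in HF.NOB, and to 323 to 1671 in the libraries other than HF.NOB, with Adipoq at 1.01 as deposited and 0.40 after adjustment. The defining red cell markers summed to 10398 in HF.NOB and 1222 to 4150.2 in the others, the neutrophil markers to 504 and 39.2 to 241, the macrophage markers to 1943 and 1215 to 1893, and the T cell markers Cd3e and Cd8a to 16.0 and 9.05 to 24.8. The defining markers of fibroblasts summed to 15615 and 12523 to 12763, those of Schwann cells to 795 and 532 to 711, of tendon to 391 and 152 to 283, of smooth muscle to 1852 and 1394 to 1779.7 and of endothelium to 3134 and 3484 to 4447. HF.NOB at ZT6 thus lay above all other libraries for the first 4 of these and below them for endothelium. The part of blood, lymphoid tissue or other cells in the other differences was not tested.

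**Figure D2:**
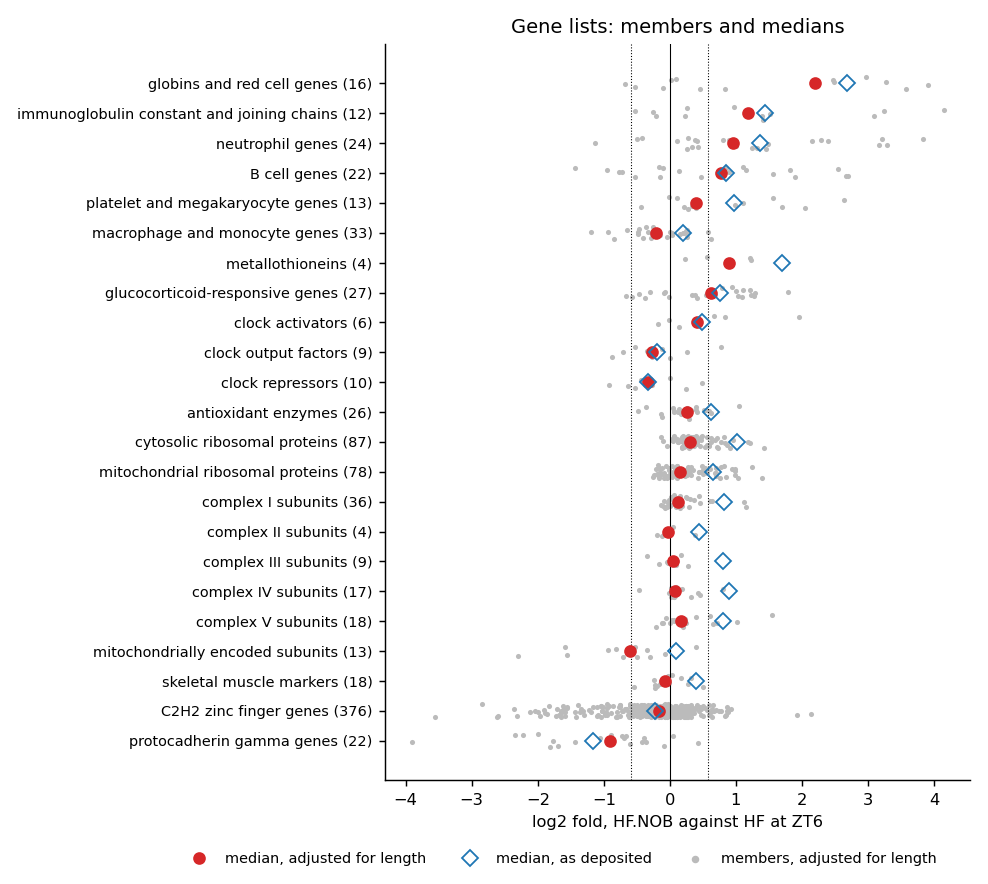
Log2 fold between HF.NOB and HF in the resting phase (x axis) for 23 gene lists (rows, with the number measured). Grey points are members after length adjustment, red circles their median, blue diamonds the median as deposited, and dotted lines mark 1.5-fold. Red cell, immunoglobulin and neutrophil medians lie to the right on both scales, while the medians of CI to CV lie near 0 after adjustment.

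Glucocorticoid-induced genes differed mostly upward. Of 27 listed, 15 lay at least 1.5-fold higher and 1 lower, beside 11.3% and 21.1% over all genes. The median was 0.62 (0.76 as deposited). While 19 of the 27 were above 0, Klf9 (-0.57), Mstn (-0.47), Dusp1 (-0.38) and Per1 (-0.29) were among those below it. After adjustment HF had the lowest value of the 6 libraries for 12 of the 27, and HF.NOB lay above all others for 1. Cebpd, a transcription factor induced by glucocorticoids and cytokines, had 199 with RD, 112 with HF and 375 with HF.NOB at ZT6, beside 495, 142 and 125 at ZT18 (1.78, 1.47 to 2.12). Fkbp5, a chaperone that restrains the glucocorticoid receptor, had 1324, 719.6 and 1659 at ZT6 in the order of diets above and 4399.9, 1959 and 1515 at ZT18, with an adjusted fold of 1.29. In both genes HF.NOB exceeded HF at ZT6, RD at ZT18 held the highest value, and at ZT18 HF.NOB lay below HF. Arrdc2, an arrestin-domain gene, was at 1.27 against HF and at -0.47 against RD, since RD (845) exceeded HF.NOB (745). The 1 gene past 1.5-fold lower was Zbtb16, a zinc finger factor, with 1284 in HF and 665 in HF.NOB (-0.66). For the whole list, the median was 0.22 for HF.NOB against RD, -0.47 for HF against RD, and -0.19 for HF.NOB against HF at ZT18. The glucocorticoid level of the mice is not in these data, and its part was not tested.

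The metallothioneins Mt1 and Mt2, small metal-binding proteins that glucocorticoids and zinc induce, also had larger values in HF.NOB than in HF in the resting phase and their largest in RD at ZT18. Mt1 had 382 with RD, 224 with HF and 887 with HF.NOB at ZT6, beside 1985, 349 and 201 at ZT18, and Mt2 had 234, 145 and 609 at ZT6 and 2099, 206 and 132 at ZT18. In both genes the lowest library was HF.NOB at ZT18, with adjusted folds of 1.23 (1.01 to 1.46) and 1.22 (0.95 to 1.505). Their promoters are shown for the metal response motif, searched as TGCACNC and as TGCGCNC on both strands and set in capitals, in RefSeq stretches (GRCm38.p6) at chr8:94179029-94179116 for Mt1, 60 bases before to 28 after the start site, and at chr8:94172478-94172637 for Mt2, both on the plus strand.
Mt1: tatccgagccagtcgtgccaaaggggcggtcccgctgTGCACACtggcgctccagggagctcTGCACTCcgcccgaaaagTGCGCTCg
Mt2: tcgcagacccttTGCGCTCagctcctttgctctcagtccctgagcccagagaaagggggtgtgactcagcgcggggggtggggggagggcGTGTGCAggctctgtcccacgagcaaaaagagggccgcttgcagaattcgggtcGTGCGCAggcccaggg
The 300-base windows held 3 matches in Mt1 and 4 in Mt2. Of all 32851 windows, 1.97% held at least 3 and 0.517% at least 4.

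Clock genes lay on both sides of 0. Of 6 activators, 3 were at least 1.5-fold higher and none lower, with a median of 0.41, and of 10 repressors 2 were lower and none higher, with a median of -0.33. Over all genes 21.1% were lower, near the share of lower repressors, and over protein-coding genes 12.6%. The third activator past 1.5-fold was Rorb (1.95, 2.99 against 8.001), which rests on few reads. Arntl (BMAL1), the activator that RORs induce, had 637 with RD, 330.4 with HF and 509 with HF.NOB at ZT6, beside 1021, 775 and 978 at ZT18 (0.67, 0.46 to 0.89). HF was the lowest of the 6, and RD at ZT6 exceeded HF.NOB, so that Arntl was at -0.25 in HF.NOB against RD. Npas2, which pairs with BMAL1 in place of CLOCK, had few reads and was at 0.84 against HF (-0.15 to 1.92) and -0.49 against RD. Nfil3, a repressor of clock output genes and a ROR and REV-ERB target, had 306 in HF and 677 in HF.NOB at ZT6 (0.78) and 1197 and 1283 at ZT18 (0.10). Clock and Rora themselves were at -0.17 and -0.01 (-0.996 and -0.93 as deposited), and Rora was at -1.06 when the principal transcript was used.

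Ciart and Per3 were the repressors past 1.5-fold lower, both of them targets of the CLOCK and BMAL1 pair. Ciart had 356 with RD, 285 with HF and 201 with HF.NOB at ZT6, beside 36.2, 49.6 and 57.4 at ZT18, the lowest of the ZT6 libraries in HF.NOB (-0.92). Per3 had 1354, 1534 and 720.1 at ZT6 and 707, 774 and 802 at ZT18, so that as deposited HF.NOB at ZT6 lay at the level of ZT18. Its fold against HF was -1.09 as deposited, where the length gradient is included. After adjustment it was -0.63, and -0.32 with a 3′-extended length. Other members were at -0.44 (Per2), -0.53 (Nr1d1, which encodes REV-ERB alpha), 0.00 (Nr1d2), -0.29 (Per1) and 0.25 (Cry1). Dbp, a clock output factor, was at -0.70, but with 1878 in HF.NOB against 1983 to 2234 in the other ZT6 libraries and 304 to 398 at ZT18 its deposited values kept the gap between the times of day. Of 17 measured ROR target genes, 4 were higher and 2 lower (median 0.15), beside 11.3% and 21.1% over all genes. The higher ones were Npas2, Nfil3, Elovl3 and Arntl and the lower ones E2f8 and Cpt1a.

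**Figure D3:**
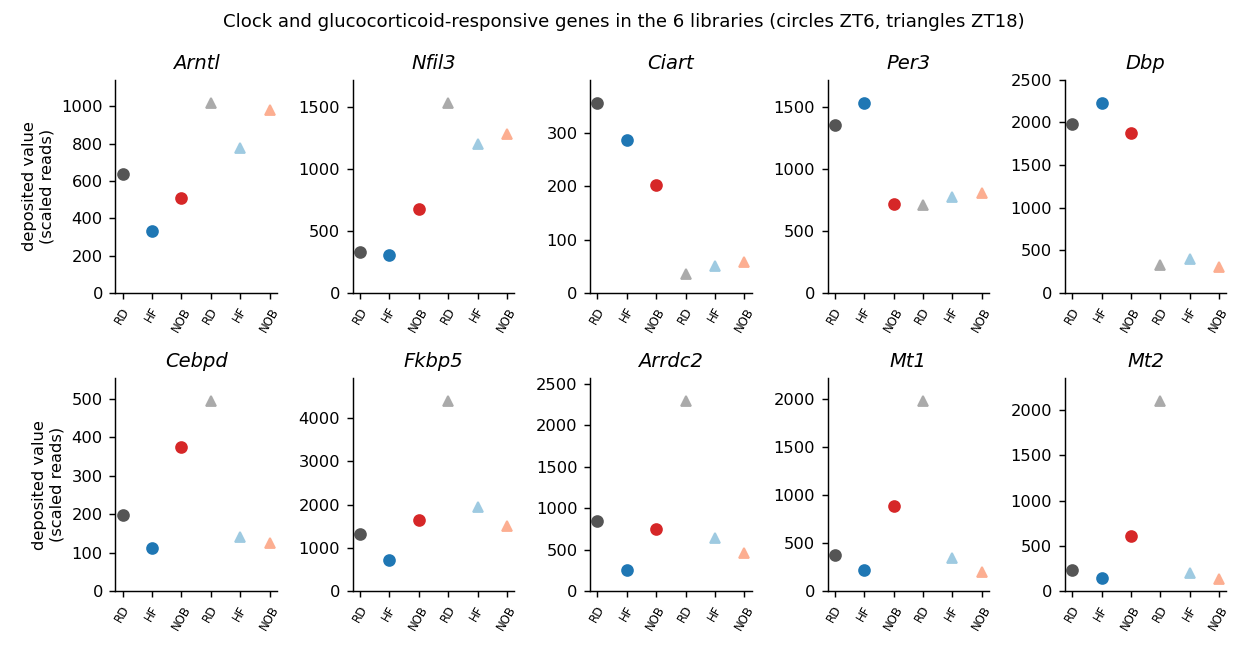
Deposited values (y axis, reads times 1 factor per library, from 0) of 5 clock and 5 glucocorticoid-responsive genes in the 6 libraries (x axis), circles for ZT6 and triangles for ZT18. Cebpd, Fkbp5, Mt1 and Mt2 have HF.NOB above HF at ZT6 and their highest value in RD at ZT18. Before length adjustment, Per3 in HF.NOB at ZT6 lies at the level of the ZT18 libraries.

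Nuclear-encoded subunits of the respiratory chain lay near or slightly above genes of similar length. The median length-adjusted fold was 0.12 for CI (36 subunits), -0.03 for CII (4), 0.05 for CIII (9), 0.08 for CIV (17) and 0.16 for CV (18), against 0.82, 0.45, 0.81, 0.90 and 0.81 as deposited. Above 0 after adjustment were 28 CI, 2 CII, 5 CIII, 15 CIV and 14 CV subunits, where 44.9% of all genes were above 0. That share includes many genes with few reads. The median fold was -0.06 over all genes, 0.006 at a mean of at least 100 and 0.02 at a mean of at least 1000. HF.NOB at ZT6 was then the highest library for 24 CI, 1 CII, 4 CIII, 8 CIV and 12 CV subunits. After adjustment 4 CI, 1 CIV and 5 CV subunits were at least 1.5-fold higher and none of the 84 was lower. Most of these rest on the choice of transcript. Atp5l, a CV subunit, had 6293 with RD, 5895 with HF and 12105 with HF.NOB at ZT6, beside 5513, 5944 and 5696 at ZT18, a deposited fold of 1.04. Its adjusted fold was 1.54 with the longest annotated transcript of 6310 bases and 0.17 with the principal one. The CI subunit Ndufb7 went from 1.16 to 0.17 and the CIV subunit Cox6c from 0.80 to 0.13 in the same way, whereas Atp5g1 of CV (1.02 and 1.07) and Ndufb2 of CI (1.13 and 1.19) kept theirs. With principal transcripts, 2 CI, 0 CIV and 2 CV subunits were past 1.5-fold. Atp5b and Atp5d of CV, which the study names, were at -0.11 and 0.24 after adjustment and at 0.31 and 0.83 as deposited.

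Ribosomal protein genes lay slightly above genes of similar length. Of 87 cytosolic ones, 84 were above 0, 17 were at least 1.5-fold higher and none lower, with a median of 0.31 (1.01 as deposited). Rps15a had 3009 in HF, 6612 in HF.NOB and 3009 to 3797 over the libraries other than HF.NOB, a length-adjusted fold of 1.43 (1.48 with the principal transcript). Both exceed the fold its deposited values give, which occurs where the annotated transcript is long enough for the trend to lie below 0. Whether that length holds for its RNA in muscle was not tested. Only 6 of the 17 were also past 1.5-fold with principal transcripts, and the median there was 0.26. HF.NOB against RD gave a median of 0.15. Mitochondrial ribosomal proteins had 16 of 78 higher and none lower (median 0.16), 13 of them also with principal transcripts. Translation factors had 6 of 36 higher (0.29), core spliceosome proteins 6 of 35 (0.25), mitochondrial import genes 5 of 32 (0.25) and proteasome subunits 4 of 31 (0.23), with none lower in any of these lists. Over all genes 11.3% were higher, near the share of proteasome subunits, and 6.40% of genes with a mean of at least 100. Sod1, the cytosolic superoxide dismutase, was at 1.05 with the longest and 0.18 with the principal transcript, and the thioredoxin gene Txn1 at 0.52 and 0.57.

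Transcripts of the mitochondrial genome mostly lay below nuclear genes of similar length. Of 13 subunits, 7 were at least 1.5-fold lower and none higher after adjustment. After adjustment the 7 lay below all other libraries, and the median of the list was -0.60 (0.10 as deposited). With mean transcript length 3 of the 13 were past 1.5-fold lower and the median was -0.34. As deposited, mt-Nd1 was highest in HF.NOB at ZT6 (399598, against 283211 to 350584 in the others). So were mt-Nd4 (228016, against at most 216063) and mt-Nd6 (111109, against at most 88654). With far fewer reads, mt-Co2, mt-Co3, mt-Atp6 and mt-Nd3 were highest there as well. The deposited values of mt-Nd2 and mt-Cytb lay within the range of the others. mt-Nd5, a CI subunit, had 333998 with RD, 384125 with HF and 179271 with HF.NOB at ZT6, beside 296037, 391446 and 360468 at ZT18. HF.NOB at ZT6 was the lowest of the 6 and its deposited fold was -1.10, while mt-Nd1 was at 0.19, mt-Nd4 at 0.10 and mt-Cytb at 0.00 on that scale. Deposited folds were also low for mt-Nd4l (-1.45) and mt-Atp8 (-0.74), which overlap mt-Nd4 and mt-Atp6 on the same strand, so that their reads can be shared. mt-Co1 was at -0.39 and mt-Nd3 at 1.24. mt-Co2, mt-Co3, mt-Atp6 and mt-Nd3 had values from 59.9 to 448 in HF, against 213059 for mt-Nd4, far fewer than for their neighbours on the same molecule. Near-identical nuclear copies of the mitochondrial genome could share such reads. Whether polyadenylation or RNA length bears on these genes was not tested.

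Ppara and Ppargc1b were the 2 past 1.5-fold lower among 26 mitochondrial biogenesis regulators. Ppara, a nuclear receptor that induces fatty acid oxidation genes, had 386 with RD, 361 with HF and 54.7 with HF.NOB at ZT6, beside 539, 633 and 497 at ZT18, an adjusted fold of -2.73 (-3.26 to -2.29). HF.NOB at ZT6 stood below every other library, and Ppargc1b, a coactivator of mitochondrial genes, did as well, with 144 against 265 to 482 (-1.71, or -0.90 with a 3′-extended length). Related lists stayed near genes of similar length. Muscle PPAR targets had a median of -0.11 with 1 of 21 higher and 1 lower. The biogenesis regulators had a median close to 0 with 1 higher and 2 lower, against 21.1% lower over all genes and 12.6% over protein-coding genes. Cpt1b, which takes fatty acids into mitochondria, was the lowest PPAR target at -0.92, and Angptl4, a lipase inhibitor, the highest at 0.79. Of 29 insulin signalling genes, 3 were higher and 2 lower. Irs1 had 356 against 1114 to 1818 in the other 5 libraries (-0.92, -1.68 as deposited), and Irs2 was at -0.89 (-1.39). The FoxO factor Foxo1 was at 1.10, the PI3 kinase subunit Pik3r1 at 1.03, the muscle ubiquitin ligase Fbxo32 at 0.998 and the lysosomal protease Ctsl at 1.41. Their deposited folds were 0.39, 0.42, 0.40 and 0.93. As deposited, Fbxo32 in HF.NOB (14905) lay between HF (11264) and RD (18816). For Foxo1 and Pik3r1 the ZT18 libraries held higher values than HF.NOB at ZT6. TCA cycle enzymes had a median of -0.02, with none of 24 past 1.5-fold either way, and fatty acid oxidation genes a median of -0.03, with 1 of 23 higher and 2 lower.

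Genes of the neuromuscular junction and of the fibre membrane lay on both sides of 0. Sln, which encodes sarcolipin, a regulator of the sarcoplasmic calcium pump, had 731 with RD, 635 with HF and 3858 with HF.NOB at ZT6, beside 1153, 1441 and 754 at ZT18. It was highest in HF.NOB at ZT6, with an adjusted fold of 1.99 (1.87 to 2.12), and lower in HF.NOB than HF at ZT18 (-0.94). The acetylcholine receptor subunits Chrng and Chrna1 were at 0.93 and 0.78, both above all other libraries as deposited too, and the embryonic and neonatal myosins Myh3 and Myh8 at 0.93 and 0.96. Musk, the kinase that clusters acetylcholine receptors, was lower, with 371 against 1415 to 1869.5 in the others (-1.95). In the list of 28 denervation and receptor genes, 8 were higher and 1 lower with a median of 0.01. In the dystrophin complex 4 of 19 were lower and none higher, beside 21.1% lower over all genes and 12.6% over protein-coding genes. Its lowest members were the sarcoglycan Sgcd (-2.11) and the syntrophin Sntb1 (-1.62). Acvr2b, a receptor of myostatin and activins, had 42.7 against 146 to 227 in the others (-2.30). Fast fibre genes had a median of -0.02 and slow fibre genes a median of -0.12, with 0 of 18 and 1 of 15 higher and none lower.

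The 15 lowest length-adjusted folds among abundant protein-coding genes were all below the range of the other 5 libraries. Nt5c1a, a cytosolic nucleotidase of muscle, had the lowest fold, with values of 547 with RD, 455 with HF and 37.3 with HF.NOB at ZT6, beside 459, 410.2 and 430.3 at ZT18 (-4.21, -4.85 to -3.69). Uprt, a uracil phosphoribosyltransferase homologue, had 36.0 in HF.NOB and 179 to 305 in the others (-3.18). Hipk2, a nuclear kinase, had 377 and 4793 to 5509 (-3.00). These other values span less than 2-fold in each gene, so the difference lies in HF.NOB. The further members were Best3 (-2.84), Ppara, Wdfy2 (-2.66), Lcor (-2.62), Zfp871 (-2.60), Foxn3 (-2.57), Pm20d2 (-2.50), Cbl (-2.45), Ston2 (-2.45), Pdpr (-2.37), Adcy9 (-2.32) and Zfp971 (-2.31). Among them, Pdpr regulates the pyruvate dehydrogenase phosphatase, Cbl is a ubiquitin ligase of receptor kinases and Adcy9 makes cyclic AMP. Ston2 had 227 in HF.NOB and 1944 to 2269 elsewhere, and Foxn3 191 and 1608 to 1918. All 15 remained past 1.5-fold with mean, principal or 3′-extended transcript length and against RD in place of HF.

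**Figure D4:**
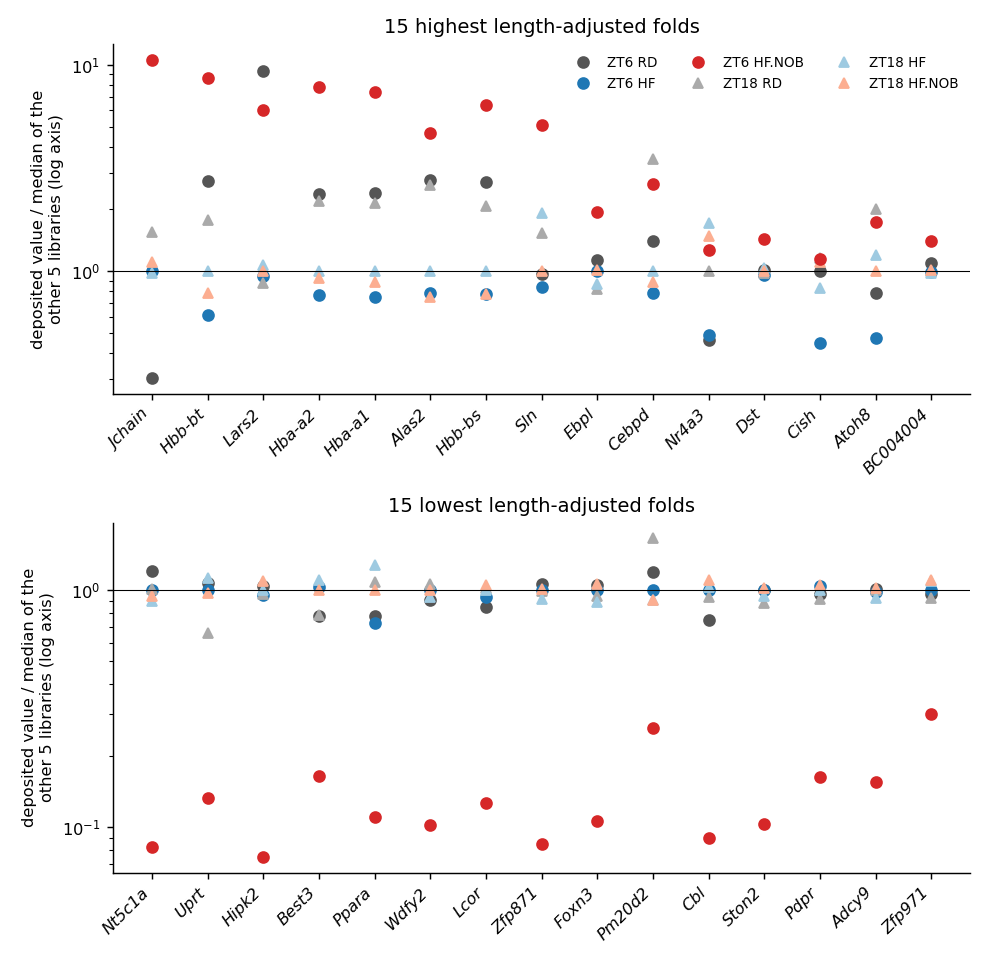
Deposited values of the 15 highest (top) and 15 lowest (bottom) genes by length-adjusted fold, each divided by the median of the 5 libraries other than HF.NOB at ZT6 (y axis, log scale). In the bottom panel the red circles of HF.NOB at ZT6 lie below all others in every gene. In the top panel Lars2, Cebpd, Nr4a3, Cish and Atoh8 have another library above HF.NOB.

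The 3′ ends of the 15 lowest genes differed between annotations. RefSeq gene models ran at least 1000 bases past the GENCODE 3′ end in 9 of the 15, with a median of 2643 bases over the 15, and in 0 of the 15 highest. For Nt5c1a, adding that stretch to the transcript length moved the fold from -4.21 to -2.74, and for Uprt from -3.18 to -2.30. Over abundant protein-coding genes, 93 of 462 genes past 1.5-fold lower with a RefSeq model had such an extension (20.1%), against 347 of 8777 genes between the thresholds (3.95%) and 12 of 621 higher genes (1.93%). Lower genes had a median of 10 exons, a genomic span of 41.3 kb and a coding length of 1899 bases, and higher genes 5 exons, 18.6 kb and 1068 bases, with 9 exons, 25.5 kb and 1407 bases for genes between. The noncoding part of the longest transcript was longest in the higher genes, with a median of 3396.5 bases against 1888 in the lower ones. Coding and noncoding lengths were known for 422 of 633 higher, 443 of 482 lower and 7498 of 8891 genes between. The classes were set by subtracting a trend in the longest transcript's length. A long annotated transcript can thus by itself place a gene among the higher ones.

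The 15 highest genes were more mixed. Besides Jchain and the red cell genes Hbb-bt, Hba-a2, Hba-a1, Alas2 and Hbb-bs, they held Lars2, Sln, Ebpl, Cebpd, Nr4a3, Dst, Cish, Atoh8 and BC004004. Of the 15, 11 lay above all other libraries, 14 stayed past 1.5-fold with mean transcript length and 11 were at least 1.5-fold higher against RD, where 13.0% of all genes were past 1.5-fold higher and 21.8% lower. Nr4a3, an orphan nuclear receptor induced by contraction, had 117 with RD, 124 with HF and 319 with HF.NOB at ZT6, beside 252, 433 and 373 at ZT18 (1.78), with 2 of the ZT18 libraries above HF.NOB. Cish, an inhibitor of cytokine signalling, had 129 in HF and 328 in HF.NOB (1.61) and 333 in RD at ZT18. Its deposited value was low in HF alone, as the other libraries held 238 to 333. Atoh8, a transcription factor, was at 1.58 with 76.9 against 279. Ebpl and BC004004 had long annotated transcripts of 10092 and 13859 bases and deposited folds of 0.94 and 0.51, and BC004004 was at 0.48 when the mean length of its transcripts was used.

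Among the 25 longest protein-coding transcripts with a mean of at least 1000, 22 had a deposited fold below 0, and 4 went against the trend in that they were at least 1.5-fold higher after adjustment. Dst, which encodes the giant linker dystonin, had 1998 with RD, 1885 with HF and 2813 with HF.NOB at ZT6, beside 1926, 2044 and 1968 at ZT18, higher in HF.NOB at ZT6 than anywhere else (0.58 as deposited, 1.64 adjusted). Syne1, a giant protein of the nuclear envelope, had 2399 and 1902, lower as deposited (-0.34) and higher after adjustment (0.73). Ube2d3 and Serbp1 were at 1.21 and 1.36 adjusted, and at 0.36 and 0.42 with the mean length of their transcripts. The titin gene Ttn and the nebulin gene Neb were still at -0.54 and -0.52 after adjustment. Among the 25 shortest, 1 had a deposited fold below 0, mt-Atp8, and it was at least 1.5-fold lower after adjustment.

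Protocadherin gamma genes, which encode adhesion molecules of nerve and other cells through variable first exons joined to shared last exons, were mostly lower. Of 22 measured, 16 were at least 1.5-fold lower and none higher, 15 lay below all other libraries, and HF.NOB at ZT6 held the lowest value of 18, with a median of -0.91. Their sum was 337.4 in HF.NOB and 720.1 to 802.4 in the other libraries. Pcdhgb1 had 0 reads in HF.NOB and 16.97 in HF, at least 4.24-fold lower with a floor of 3 reads, and Pcdhga2 had 53.9 and 8.001 (-2.34). The shared last exons leave only reads of the first exons to tell the members apart, and with mean transcript length 11 were past 1.5-fold lower and 1 higher. Protocadherin alpha and beta genes had 4 higher and 5 lower of 20 (median -0.02). C2H2 zinc finger genes, the largest family of transcription factors, had 18 higher and 77 lower of 376 (median -0.17). Their share of lower genes is near the 21.1% over all genes but above the 12.6% over protein-coding genes. Of the zinc finger genes 33.5% lay above 0, against 44.9% of all genes. Zfp973 was the lowest at -3.56 with 57.9 in HF and 6.67 in HF.NOB. Replication-dependent histones, whose transcripts carry no poly(A) tail, had 3 higher and 14 lower of 30 after adjustment (median -0.29), but 11 higher and 10 lower as deposited (median 0.09). Of the 30, 19 had under 20 reads in both libraries together, and the deposited values summed to 8380.2 in HF.NOB and 5075 to 5670.1 in the others.

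Noncoding genes and pseudogenes had a median below 0 after adjustment in each annotated type with at least 30 genes. Medians were -0.53 for lincRNA (776 genes), -0.66 for antisense (960), -0.67 for loci to be experimentally checked (TEC, 769), -0.54 for processed pseudogenes (853) and -1.21 for sense intronic genes (93), against a median close to 0 for 15654 protein-coding genes. As deposited, not all types were lower, with medians of 0.22 for processed pseudogenes, 0.32 for transcribed processed pseudogenes and 0 for snoRNA and for lncRNA of bidirectional promoters. Processed pseudogenes summed to 24379 in HF.NOB and 19825 to 21920 in the others. The sense intronic genes summed to 2240 in HF.NOB and 2968 to 4176 in the others, and TEC loci to 15146 and 24016 to 27064, below the other libraries as deposited too. Strand use in counting is not given in the sources used here, so antisense and intronic reads may come from the genes they overlap. Short types such as snRNA (-1.85), misc_RNA (-1.62) and miRNA (-1.17) had few reads, with median values of 1.98, 3.05 and 2.98 per gene. Their deposited medians were -0.999, -0.78 and -0.32. Of 20 named long noncoding RNAs, 7 were higher and 1 lower. Neat1, the scaffold of paraspeckles, had 38687 in HF and 45749.8 in HF.NOB (1.30 adjusted, 0.24 as deposited), and Malat1 15188 and 8252 (-0.29).

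Some structural RNAs without a poly(A) tail were higher, and they were named after their values were seen. Rn7sk, the RNA that holds the elongation factor P-TEFb, had 84.0 in HF.NOB at ZT6 and at most 5.34 in any other library, which is 63 reads against 1 in HF. Rmrp, the RNA of RNase MRP, had 25 reads in HF.NOB and 0 in HF, and since it passed the minimum mean through HF.NOB alone, it had to differ. Rpph1, the RNA of RNase P, had 28 reads and 1. Ribosomal RNA-like loci gave another pattern. The rRNA locus CT010467.1 (chr17:39846353-39848827, GRCm38) had 46041, 13124 and 75992 at ZT6 (RD, HF, HF.NOB) and 13382 to 14839 at ZT18. The nearby loci Gm26917 and Gm42418 and the leucyl tRNA synthetase gene Lars2 were likewise high in both RD and HF.NOB of ZT6. Lars2 had 61349 with RD, 6225 with HF and 39778 with HF.NOB at ZT6, beside 5792, 7108 and 6605 at ZT18, so that its fold was 2.74 against HF and -0.59 against RD. mt-Rnr1, the small mitochondrial ribosomal RNA, was at 0.56 and mt-Rnr2, the large one, at 0.10. The part of rRNA removal or poly(A) selection in these values was not tested.

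**Figure D5:**
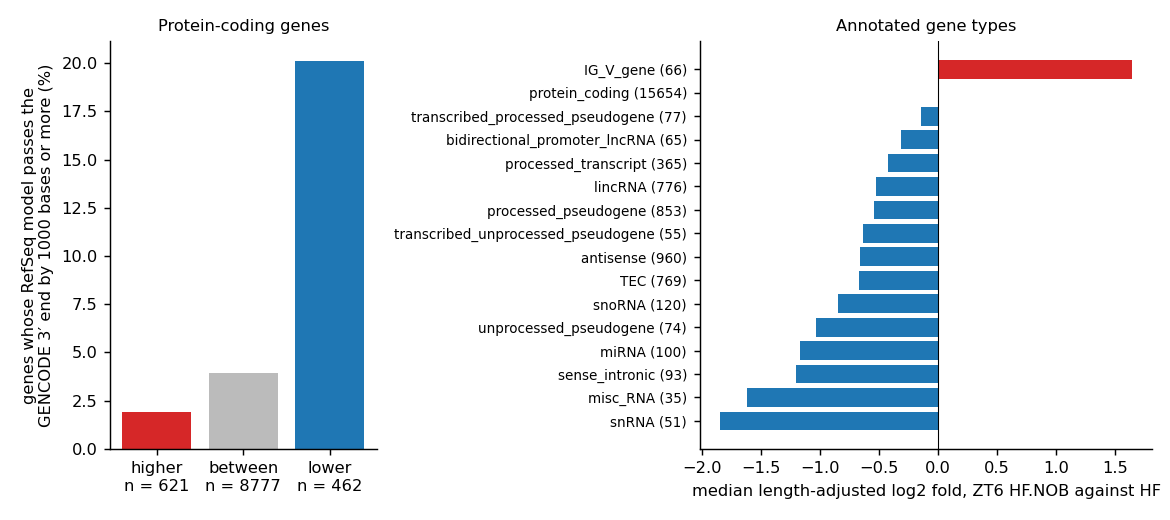
Left, percent of abundant protein-coding genes (mean 100 or more) whose RefSeq model runs at least 1000 bases past the GENCODE 3′ end, by length-adjusted fold (at least 1.5-fold higher, between, at least 1.5-fold lower, with numbers of genes). Right, median length-adjusted log2 fold by annotated gene type (number of genes in parentheses), with immunoglobulin variable segments above 0 and all noncoding types and pseudogenes below 0. As deposited, some of these types were at or above 0.

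Stress and inflammation lists varied in their share past 1.5-fold, beside 11.3% of all genes higher and 21.1% lower. Genes of p53 and senescence had 6 higher and 1 lower of 23 (median 0.28), complement and acute-phase genes 7 and 3 of 25 (0.13), and cytokines, chemokines and their receptors 4 and 4 of 32 (0.03). Heat shock genes had 2 of 22 higher, the near-identical Hspa1a (1.23) and Hspa1b (1.13), immediate early genes 3 higher and 2 lower of 27, and endoplasmic reticulum stress genes 2 of 25 higher. Antioxidant enzymes had 3 of 26 higher (median 0.26) and NRF2 targets 3 of 20 (0.05). Interferon-stimulated genes had 6 higher and 2 lower of 40 (median 0.14), and against RD their median was 0.75 for HF.NOB and 0.56 for HF. Il6 had 1.33, 7.98 and 2.67 at ZT6, which is 8 reads in HF and 2 in HF.NOB, with an interval of -5.13 to 0.47. Cholesterol synthesis genes had none of 24 past 1.5-fold (median 0.12), glycolysis enzymes 1 of 23 lower (0.02), and the 18 skeletal muscle markers none (-0.07).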

How the data were processed

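RNA-seq of calf muscle was analysed for HF.NOB against HF at ZT6, beside the 4 other libraries. Per the submitters' processing notes, TopHat2 2.0.12, Cufflinks 2.2.1 and the mm10 build were used by the authors. The deposited table holds a normalized signal per gene, whole reads times 1 factor per library. Every value (100%) was a whole multiple of the value of 1 read within 0.001. The table had 0 columns of other samples. How reads were counted and scaled is not given in the sources used here.

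Gene types and lengths came from GENCODE M21 (GRCm38), which annotated 99.4% of identifiers, and 3′ ends and promoters from RefSeq (GRCm38.p6). Log2 folds used a pseudocount of 1 and a minimum mean of 1. The trend with transcript length was the median fold in 50 bins of equal gene number over 11440 genes (mean 50 or more) outside the respiratory chain, TCA cycle and fatty acid oxidation lists, interpolated between bins. Genes were counted at 1.5-fold, and 93 lists were described by counts and medians. With 23248663 to 31837501 reads per library, intervals (95%) and floors (3 reads) cover counting error only. An edgeR quasi-likelihood fit on the recovered reads, with diet and time as additive terms, called 0 of 14988 genes for HF.NOB against HF (smallest adjusted p 0.769), with 348 at an unadjusted p under 0.05. It treats the times as replicates and does not test ZT6 alone. No p-value is given for the comparison itself.

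The genes and lists were chosen with earlier results of these data known. Some members of the lists are not reported here. Genes named are the 15 highest and 15 lowest adjusted folds among abundant protein-coding genes (mean 100 or more), leaving out symbols of the kinds LOC, Rn, Snor, Mir, Rik and Gm, those of the 25 longest and 25 shortest transcripts with a mean of at least 1000 that go against the length trend, up to 4 highest and 4 lowest members of each list with a mean of at least 5, and genes the study names. Other genes named, among them further members of lists, were chosen after their values were seen. Alternatives were other pseudocounts, filters, lengths, bins, scalings, GC content, a 2-fold threshold and RD in place of HF. The principal-transcript and 3′-extended lengths were added after seeing the data. Steps were tested on simulated data. Software was R 4.3.3 with edgeR 4.0.16, and Python 3.11.15 with SciPy 1.17.1, NumPy 2.4.6, Matplotlib 3.10.9 and pandas 2.3.3.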

Additional observations from a re-analysis of the deposited data

How the results depend on the processing

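No paired analysis was possible because each condition has 1 library. Counts moved mostly with the filter on low values. Main counts were 2281 genes higher, 4256 lower, 4617 outside the other 5 libraries and 8810 past 1.5-fold as deposited, with 9 lists past 1.5-fold. With no filter they were 6930 lower and 7337 outside. A mean of at least 10 gave 1179 higher, 1790 lower, 2472 outside and 5224 as deposited, and a mean of at least 100 gave 661, 575, 1146 and 3233. Protein-coding genes alone gave 2005 lower, 2627 outside and 5864 as deposited. At 2-fold there were 1009 higher, 2728 lower, 2791 outside, 4090 as deposited and 3 lists, and with a pseudocount of 5 there were 1500 higher and 5 lists. Without length adjustment 4253 genes were higher, 25 lists were past 1.5-fold, Syne1 was at -0.34, and 53.8% of the mitochondrially encoded subunits were above 0. Higher genes were 34.9% of those past 1.5-fold, 53.5% at a mean of at least 100, 45.9% among protein-coding genes and 48.3% as deposited. With RD as the comparison library, signs turned for Lars2 (-0.59), Arntl (-0.25), Npas2 (-0.49), Arrdc2 (-0.47) and Il6 (0.36). The cause of these changes was not tested, beyond the fewer genes that a filter leaves. Where run, a pseudocount of 0.1, mean, principal or 3′-extended length, 20 bins, a trend on all genes, GC content, RD as the comparison library and TMM, upper-quartile, median-ratio and total scaling left these counts within 1.5 times.

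The main limit is 1 column a side. The length adjustment removes any difference that follows length, whatever its source, and it depends on which transcript stands for a gene. Genes with under 20 reads have wide counting intervals.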
